A study of Mus musculus with 4 samples.

Results

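The clustered histone genes described here were the 67 protein-coding genes, of 54532 genes in the deposited table, whose older mouse symbol starts with Hist1h, Hist2h, Hist3h or Hist4h. They comprised 6 linker histone H1 genes, 18 H2A, 18 H2B, 12 H3 and 13 H4 genes. Of these, 54 lie in the Hist1 cluster on chromosome 13, 10 in the Hist2 cluster on chromosome 3, 2 in the Hist3 cluster on chromosome 11, and Hist4h4 lies on chromosome 6 (GRCm38). RNA was sequenced from epidermal stem cells (EpSCs), which are the dividing cells of the basal skin layer, here taken from C57BL/6 mice and kept in EpiLife with HKGS supplement. The 2 ALP libraries came from cells given 30 μg/mL ALP (read from the series' title as Arctium lappa L. polysaccharide) for 48 h. The 2 control libraries came from cells given 0.06% DMSO for the same 48 h. The labels do not give the DMSO content of the ALP cultures, nor whether replicates were separate mice or cultures, so the p-values below measure only the spread between these libraries, which may be technical.

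Histone octamers of H2A, H2B, H3 and H4 package DNA into nucleosomes, and H1 binds the linker DNA between them. The clustered genes are the replication-dependent ones: they have no introns as a rule, are transcribed mainly in S phase, and make mRNAs that end just after a conserved stem-loop in place of a poly(A) tail. The stem-loop binding protein Slbp holds that stem-loop through processing, export, translation and decay. Some clustered genes can also make longer, polyadenylated mRNAs, and these are known from cells that have left the cycle. In the epidermis, dividing basal cells supply the differentiating layers above them.

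The stem-loop separates the H4 genes from the other classes by its letters, and it marks where a replication-dependent histone mRNA should end, so it is shown for the most abundant gene of each class that has one. The sites were read from GENCODE M21 transcripts (GRCm38) as DNA letters, 5′ to 3′, with the 16 bases of the stem-loop in capitals and 5 flanking bases on each side.
Hist1h1c (H1): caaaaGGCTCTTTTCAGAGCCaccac
Hist3h2a (H2A): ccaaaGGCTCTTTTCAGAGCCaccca
Hist1h3c (H3): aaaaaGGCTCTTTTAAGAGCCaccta
Hist1h4i (H4): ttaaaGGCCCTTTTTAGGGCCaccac
The Hist1h1c site lies at chr13:23739507-23739532 (+), the Hist3h2a site at chr11:58955167-58955192 (+), the Hist1h3c site at chr13:23745042-23745067 (-) and the Hist1h4i site at chr13:22040961-22040986 (-). A stem-loop was found after the stop codon in 46 of the 67 annotated transcripts. By class these were 4 of 6 H1, 11 of 18 H2A, 10 of 18 H2B, 9 of 12 H3 and 12 of 13 H4 genes. Of the others, 17 have annotated transcripts with fewer than 60 bases after the stop codon, which may end before the stem-loop. The fractions thus depend on the annotation, and also on the consensus searched, and do not show that a gene lacks a stem-loop. The form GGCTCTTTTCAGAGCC occurred in 26 genes, none of them an H4 gene. The commonest form in the H4 genes was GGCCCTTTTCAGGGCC, with 7 of 12, and no form occurred both in H4 genes and in another class. The annotated transcript of Hist1h2bc, the most abundant H2B gene, holds no stem-loop. Its stop codon lies close to the end of the first exon, and the intron that follows was not searched.

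Read counts of the clustered histone genes were low. They summed to 1097 and 765 counts in the ALP libraries, against 1319 and 1264 counts in the control libraries, which is 0.00629% and 0.00485% of all counts in the ALP libraries and 0.00757% and 0.00728% in the control libraries. Both ALP sums lay below both control sums. A total of 12 genes had no count in any library, 55 had no library above 10 counts, and 9 passed the low-count filter (about 10 counts in at least 2 libraries) and were tested. The 2 genes with the most reads, Hist1h1c and Hist1h2bc, held 74.6% of all these counts. The labels give total RNA as the starting material, and they name no library kit, poly(A) selection or strand protocol. Their part in these low levels was not tested.

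The 4 libraries held 15766244 to 17430345 counts in all. The ALP libraries differed from each other more than the controls did, with a chi-square per degree of freedom over genes of 24.8 for the ALP pair and 6.42 for the control pair. Levels are given as CPM, counts per 1000000 after TMM scaling of the library totals. The summed level of the 7 basal keratinocyte markers was 36210 and 29850 CPM in ALP, against 48350 and 48540 CPM in control, with 2 of the 7 higher and 2 lower in ALP by edgeR's test. Krt15, a basal keratin gene, had 1010 and 27 counts in ALP against 4434 and 3519 counts in control, which shows the gap between the ALP libraries. Of the markers of other cell types, 0 of 5 melanocyte genes passed the test (63.6 and 52.8 CPM summed in ALP, 60.1 and 56.6 CPM in control). The 6 fibroblast markers summed to 7.93 and 4.46 CPM in ALP and 17.5 and 13.6 CPM in control, with 1 of 5 tested lower and Lum at 0. The 4 endothelial markers summed to 14.64 and 25.02 CPM in ALP and 6.17 and 7.71 CPM in control, with 2 of 3 tested higher, 1 lower, and Cdh5 at no more than 2 counts. The 5 immune markers summed to 7.23 and 5.17 CPM in ALP and 9.46 and 9.43 CPM in control, with Cd3e and Cd207 at 0. Whether these shifts had a part in the histone values was not tested, and in bulk RNA fewer cells of a type and less RNA per cell cannot be told apart.

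None of the 9 tested clustered histone genes passed edgeR's quasi-likelihood test at a Benjamini-Hochberg adjusted p under 0.05, while 30.9% of all tested genes did (18.0% higher and 12.9% lower in ALP). At an unadjusted p under 0.05, 1 of the 9 passed, against 46.6% of all tested genes. DESeq2's Wald test and limma-voom each called 1 gene, Hist1h2bc, lower in ALP and none higher, where they called 29.6% and 33.7% of all genes. In 2 of the 9 genes both ALP libraries lay above both controls, in 3 both lay below, and in 4 the groups overlapped. Over all tested genes both ALP libraries lay above in 38.2% and below in 37.5%. The median log2 fold change was -0.05 over the 9 genes and -0.0029 over all tested genes. The plot of genes with at least 20 counts shows these values by library.

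**Figure D1:**
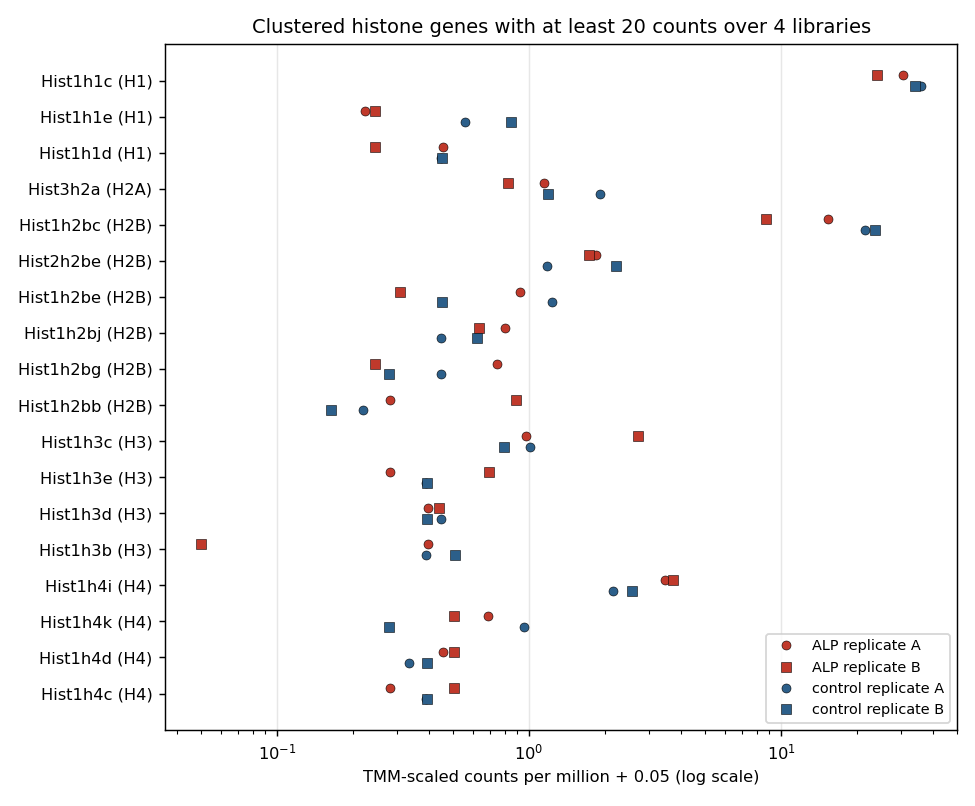
Level of each clustered histone gene with at least 20 counts over the 4 libraries, in TMM-scaled CPM plus 0.05 on a log axis; points are single libraries (red, ALP; blue, control). Hist1h1c and Hist1h2bc stand above the rest, and the ALP points of both lie left of the control points.

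Hist1h1c encodes the linker histone H1.2 and gave 96.8% of the reads of the H1 class. It had 524 and 372 counts in the ALP libraries, against 636 and 592 counts in the control libraries, or 27.2 ± 4.43 CPM in ALP and 34.9 ± 1.56 CPM in control (SD, n = 2 each). Both ALP libraries lay below both controls, and the log2 fold change was -0.36 ± 0.15 (SE; 95% interval -0.72 to 0.00; edgeR adjusted p = 0.109), which missed the threshold. With ALP replicate A left out the value was -0.54, and with ALP replicate B left out it was -0.19. The gene (chr13:23738808-23740367, +) is annotated as 1 exon that runs 840 bases past its stem-loop. Hist1h1e, which encodes H1.4, had 3 and 3 counts in ALP against 9 and 14 counts in control and did not reach the filter. The 5 H1 genes other than Hist1h1c had at most 14 counts in any library. The H1 class as a whole summed to 31.4 and 24.6 CPM in ALP and 37.1 and 35.2 CPM in control, a log2 ratio of -0.37. Poisson intervals of these sums, which cover counting error only, overlap in 1 of the 4 pairings of an ALP with a control library.

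The H2A genes gave the fewest reads, 37 and 23 counts in ALP against 51 and 37 counts in control over all 18 genes. Their sums were 2.14 and 1.49 CPM in ALP (exact Poisson 95% intervals 1.51 to 2.95 and 0.943 to 2.23, counting error only) and 2.89 and 2.11 CPM in control (2.15 to 3.80 and 1.49 to 2.91). These intervals overlap between the groups in all 4 pairings of an ALP with a control library. Hist3h2a supplied 56.8% of the class, with 19 and 12 counts in ALP and 33 and 20 counts in control. Its log2 fold change was -0.67 ± 0.43 (edgeR adjusted p = 0.266), with a 95% interval of -1.73 to 0.39. Its exon (chr11:58954685-58956830, +) shares 708 bases, or 33.0%, with exons of Trim17 on the same strand, so reads there cannot be given to 1 of the 2 genes with certainty. Hist1h2ac, the next most abundant H2A gene, had 8 and 1 counts in ALP against 5 and 4 counts in control. Of the 17 H2A genes other than Hist3h2a, 14 had fewer than 10 counts over the 4 libraries, and 6 had none.

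The H2B class held the one clustered histone gene with an unadjusted p under 0.05. This was Hist1h2bc, which had 265 and 134 counts in ALP against 380 and 411 counts in control, or 12.0 ± 4.72 CPM in ALP and 22.5 ± 1.38 CPM in control (SD, n = 2 each). Both ALP libraries lay below both controls, and ALP replicate B was the lowest. The log2 fold change was -0.90 ± 0.27 (95% interval -1.58 to -0.22; edgeR adjusted p = 0.0551), which did not pass. The gene passed with DESeq2 (-0.91, adjusted p = 0.0139) and with limma-voom (-0.94, adjusted p = 0.0364), and the authors' deposited table gives it an adjusted p of 0.0136. The log2 fold change was -1.38 with ALP replicate A left out and -0.54 with ALP replicate B left out. The size of the difference thus moved with the ALP library used. Whether the gene passed was not read from these fits, which leave 1 library in a group. The annotated gene (chr13:23684199-23692908, +) has a first exon of 423 bases and a second of 733 bases. Its transcript ends 742 bases after the stop codon and holds no stem-loop, but the intron was not searched.

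Without Hist1h2bc, the 17 other H2B genes summed to 5.55 and 4.07 CPM in ALP and 4.53 and 4.11 CPM in control, a log2 ratio of 0.16, against -0.67 with it, and the groups overlapped. Whether any of these genes differed from Hist1h2bc was not tested. For the whole H2B class, with Hist1h2bc, the Poisson intervals overlap in 0 of the 4 pairings of an ALP with a control library. Hist2h2be had 31 and 26 counts in ALP and 20 and 38 counts in control. Its groups overlapped, with a log2 fold change of 0.08 ± 0.40 (95% interval -0.93 to 1.08; edgeR adjusted p = 0.902). Hist2h2be (chr3:96221119-96223738, +) shares no 100-base stretch with transcripts of other genes, so its reads are the least open to mix-up among the H2B genes tested. Hist1h2bj and Hist1h2be fall outside the naming rule and are given to complete the tested genes. Hist1h2bj had 13 and 9 counts in ALP against 7 and 10 counts in control (log2 fold change 0.47 ± 0.48). Hist1h2be had 15 and 4 counts in ALP against 21 and 7 counts in control (-0.46 ± 0.76), and shares 496 exon bases with Hist1h1e on the same strand. Neither passed, and the difference between libraries of 1 group was as large as that between groups for Hist1h2be. Hist3h2ba had 2 and 1 counts in ALP and 1 and 1 counts in control, too few for a test.

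**Figure D2:**
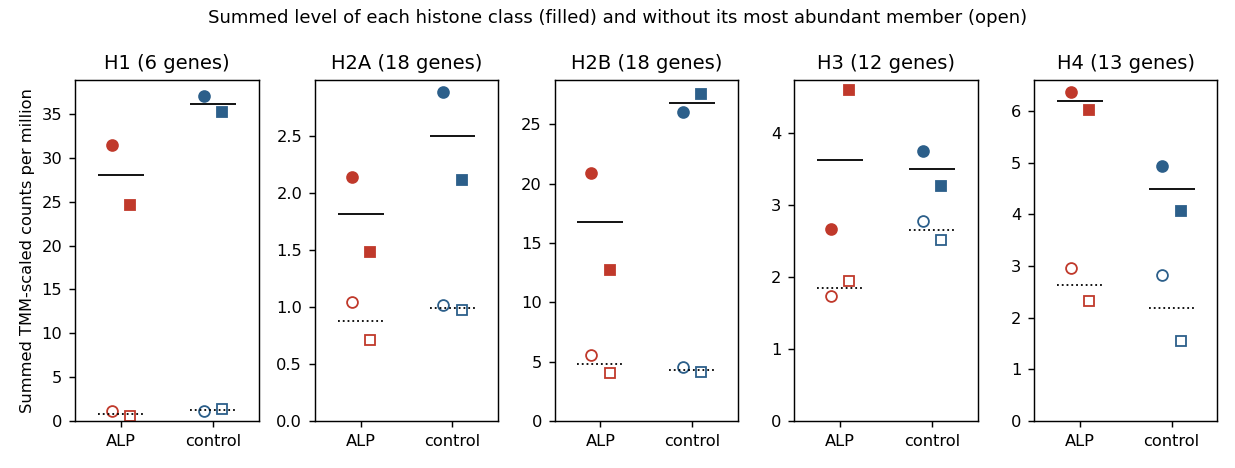
Summed TMM-scaled CPM of each histone class by library (red, ALP; blue, control; circles, replicate A; squares, replicate B), with group means as lines; each panel has its own axis from 0. Filled points are all genes of the class and open points leave out its most abundant gene, without which the H2B sums of the groups overlap.

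The H3 genes, which encode the replication-dependent H3 proteins, summed to 2.66 and 4.59 CPM in ALP and 3.74 and 3.26 CPM in control, a log2 ratio of 0.05. The control sums lay between the ALP sums, and the spread within ALP came from 1 gene. Hist1h3c had 16 and 41 counts in ALP against 17 and 13 counts in control, so ALP replicate B alone stood apart. Its log2 fold change was 1.04 ± 0.59 (95% interval -0.43 to 2.51; edgeR adjusted p = 0.220). The value was 1.62 without ALP replicate A but 0.13 without ALP replicate B. Without Hist1h3c, the 11 other H3 genes summed to 1.74 and 1.94 CPM in ALP and 2.78 and 2.51 CPM in control, a log2 ratio of -0.53 with both ALP sums below both control sums. The Poisson intervals of these sums were 1.17 to 2.48 and 1.31 to 2.77 CPM in ALP. In control they were 2.05 to 3.67 and 1.83 to 3.37 CPM, so each ALP interval overlaps both control intervals. The sign of the class ratio, which was 0.05 with Hist1h3c, thus turned. Hist1h3e, the next most abundant, had 4 and 10 counts in ALP and 6 and 6 counts in control. The H3 ratio was also -0.39 without ALP replicate B.

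The H4 class was the one class whose sum was higher in both ALP libraries than in both controls. It came to 6.36 and 6.01 CPM in ALP and 4.93 and 4.06 CPM in control, a log2 ratio of 0.46. Their Poisson intervals overlap for 3 of the 4 pairings of an ALP with a control library. Hist1h4i made up 54.6% of it, with 59 and 57 counts in ALP against 37 and 44 counts in control, or 3.55 ± 0.19 CPM in ALP and 2.30 ± 0.30 CPM in control (SD, n = 2 each). Both ALP libraries lay above both controls. The log2 fold change was 0.62 ± 0.26 (95% interval -0.02 to 1.26; edgeR adjusted p = 0.116), which did not pass. Without it, the 12 other H4 genes summed to 2.95 and 2.33 CPM in ALP and 2.83 and 1.54 CPM in control, and the groups overlapped. Hist1h4k had 11 and 7 counts in ALP and 16 and 4 counts in control (log2 fold change -0.05 ± 0.71), with both ALP values between the controls. Hist4h4 (chr6:136801553-136804415, -), the single gene outside the 3 clusters, had 5 and 6 counts in ALP and 2 and 0 counts in control and was not tested.

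Over all 67 genes, the summed level was 63.5 and 49.5 CPM in ALP and 74.7 and 72.2 CPM in control, a log2 ratio of -0.38. Hist1h1c and Hist1h2bc together gave 45.7 and 32.7 CPM of that in ALP and 57.5 and 57.3 CPM in control. The other 65 genes gave 17.8 and 16.7 CPM in ALP and 17.2 and 14.9 CPM in control, a log2 ratio of 0.11, with ALP replicate B between the controls. The sign of the whole sum thus turned when these 2 genes were left out. Other parts of the group, each with few reads, went both ways. The log2 ratio was -0.54 for H1 without Hist1h1c, -0.18 for H2A without Hist3h2a and -0.53 for H3 without Hist1h3c. It was 0.16 for H2B without Hist1h2bc and 0.27 for H4 without Hist1h4i. With Hist3h2a kept H2A was at -0.46, and with Hist1h4i kept H4 was at 0.46. The 58 genes that did not reach the filter summed to 8.33 and 6.66 CPM in ALP and 8.61 and 7.14 CPM in control, and these groups overlapped.

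The 4 genes with at least 100 counts were all annotated with long 3′ ends, and the next, Hist1h3c, ends near its stem-loop. The 23 genes whose transcript ends within 100 bases after the stem-loop had a median of 7 counts over the 4 libraries and 6.30% of all clustered histone counts. The 23 genes annotated to run further past the stem-loop had a median of 18 counts and 61.8% of the counts, most of them from Hist1h1c. A further 4 genes had no stem-loop in the annotated transcript and at least 60 bases after the stop codon. They held 29.6% of the counts, and Hist1h2bc and Hist2h2be were among them. Hist2h2be is annotated as 1 exon with 2192 bases after its stop codon, and the others have 2 exons. Stem-loop forms outside the consensus were not searched. The 17 genes with no stem-loop and fewer than 60 bases after the stop codon had a median of 1 count and 2.32% of the counts. A longer annotated transcript can collect more reads. By counts per kilobase, the genes that end near the stem-loop held 14.7% and 21.0% of the summed level in ALP and 12.2% and 10.7% in control, more than their share of counts. The genes that run past it held 52.5% and 55.6% in ALP and 48.7% and 48.4% in control. Of the 9 tested genes, 2 were annotated to end near the stem-loop, Hist1h3c and Hist1h2bj. The summed level of the genes that end near the stem-loop was 4.11 and 5.17 CPM in ALP and 4.02 and 3.31 CPM in control, with both ALP sums above both control sums. Their Poisson intervals overlap in all 4 pairings of an ALP with a control library. Without Hist1h3c the 22 others summed to 3.18 and 2.52 CPM in ALP and 3.06 and 2.57 CPM in control, and the groups overlapped. The genes that run past the stem-loop summed to 40.3 and 33.0 CPM in ALP and 45.7 and 41.8 CPM in control, with both ALP sums below and Poisson intervals that overlap in 2 of the 4 pairings. Without Hist1h1c the 22 others summed to 9.95 and 8.92 CPM in ALP and 9.684 and 7.996 CPM in control, so both directions rested on 1 gene each.

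**Figure D3:**
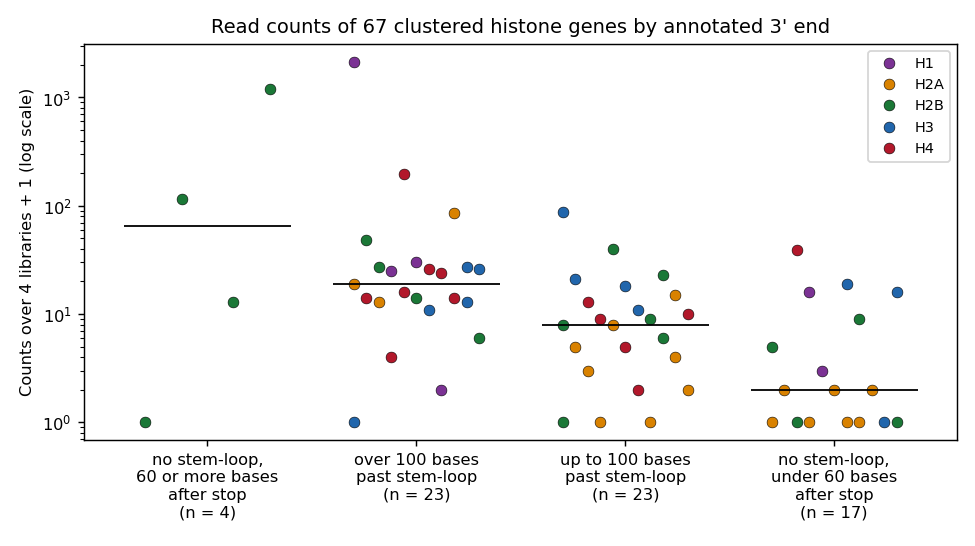
Counts over the 4 libraries plus 1, on a log axis, of all 67 clustered histone genes by their annotated 3′ end; points are genes coloured by class and lines are medians. The medians are lower for genes that end near the stem-loop or soon after the stop codon than for those with longer ends. Hist1h1c and Hist1h2bc are among the latter. The kinds also differ in sequence shared with other genes, and its part was not tested.

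Near-identical copies and overlapping annotated genes limit what single genes show. In 28 genes at least 50% of all 100-base stretches of the longest transcript also occur in a transcript of another gene. Of these 28, 9 had no count, the highest had 38 counts over the 4 libraries (Hist1h4k), and 1 was tested. In 6 genes every stretch was shared, and 5 of them had no count. Those 5 were Hist2h2aa1, Hist2h2aa2, Hist2h2bb, Hist2h3b and Hist2h3c1. All their exon bases (100%) also lie in exons of another annotated gene at the same place. The overlap is on the same strand for Hist2h3c1 and includes the opposite strand for the others. Such overlap can by itself make a stretch count as shared, without a copy elsewhere. The other 39 genes included 8 of the 9 tested. The treatment of reads that fit several genes is unstated in the labels and files, so a gene at 0 may have lost its reads, and values of single genes with shared sequence are uncertain. Of Hist1h1c, 5.07% of the stretches were shared, of Hist1h2bc 25.4%, of Hist1h4i 15.1% and of Hist1h3c 28.4%. By annotated 3′ end, the median share was 52.4% for genes that end near the stem-loop and 15.1% for those that run past it. Among genes with no stem-loop it was 62.6% with longer ends and 64.3% with fewer than 60 bases after the stop codon. What part shared sequence had in the counts by 3′ end was not tested.

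The promoters differed by class. Windows of 250 bases before to 50 bases after the start were available for 61 of the 67 genes (RefSeq, GRCm38.p6), and both strands were searched. The octamer ATTTGCAT, bound by Pou2f1, occurred in 7 of 18 H2A and 6 of 16 H2B promoters, in none of the 27 H1, H3 or H4 promoters, and in 1.75% of 27025 promoters of all genes. The H1 box AAACACA occurred in 4 of 5 H1 promoters, in 2 of 18 H2A and 2 of 16 H2B promoters, and in 7.14% of all promoters. CCAAT occurred in 52 of 61 clustered histone promoters, with 3 of 12 in H4 genes, and in 37.9% of all promoters. TATAAA occurred in 34 of 61, against 14.2% of all promoters. A match describes the letters only. Windows of H2A and H2B genes that start close together on opposite strands overlap, so the same site can be counted in both classes. The octamer was shared in this way by Hist1h2aa and Hist1h2ba, by Hist1h2ae and Hist1h2bg, and by Hist1h2ah and Hist1h2bk. Hist1h2aa and Hist1h2ba also share their H1 box. The H2A and H2B counts are therefore not all separate sites.

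Windows are printed for the 2 genes with the most reads, Hist1h1c and Hist1h2bc. Hist1h2bc had no entry of its own. Hist1h2ac starts 251 bases from it on the opposite strand, so the Hist1h2ac window holds the DNA between the 2 starts. Capitals mark the octamer, the H1 box, CCAAT and TATAAA on either strand, and each window runs 5′ to 3′ on the strand of the gene it is named for.
Hist1h1c, chr13:23738557-23738856 (+): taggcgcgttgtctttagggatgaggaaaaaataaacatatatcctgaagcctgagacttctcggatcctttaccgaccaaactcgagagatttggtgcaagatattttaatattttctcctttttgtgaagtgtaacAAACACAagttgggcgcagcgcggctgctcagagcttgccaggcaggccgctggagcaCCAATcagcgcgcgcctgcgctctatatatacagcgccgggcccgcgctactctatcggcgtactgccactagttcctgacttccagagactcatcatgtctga
Hist1h2ac, chr13:23683910-23684209 (-): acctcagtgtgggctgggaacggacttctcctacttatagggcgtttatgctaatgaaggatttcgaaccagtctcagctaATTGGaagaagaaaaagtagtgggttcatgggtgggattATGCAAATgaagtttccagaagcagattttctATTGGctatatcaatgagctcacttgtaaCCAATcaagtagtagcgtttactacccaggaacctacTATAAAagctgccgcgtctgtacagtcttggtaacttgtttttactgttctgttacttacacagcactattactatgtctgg
The 2 genes that share the second window differed widely in reads, with 399 counts in ALP and 791 counts in control for Hist1h2bc and 9 in each group for Hist1h2ac.

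Outside the clusters, the replication-independent histone variants, most of which are made outside S phase too, from polyadenylated mRNAs, had far more reads. By counts per kilobase of gene length, clustered H3 genes made up 1.69% and 2.81% of the summed level of clustered H3 genes, H3f3a, H3f3b and Cenpa in ALP, and 2.30% and 2.15% in control. Clustered H2A genes made up 0.726% and 0.671% of the H2A sum in ALP and 1.15% and 0.883% in control. For H1 the share was 21.4% and 22.5% in ALP and 22.1% and 21.3% in control, beside H1f0 and H1fx. Of the 11 variants, 1 was higher and 3 were lower in ALP by edgeR, where 18.0% of all tested genes were higher and 12.9% lower, so the share of variants called was near that of all genes. Their median log2 fold change was -0.19, against -0.0029 over all tested genes. H2afx, which carries the phosphorylation mark of DNA breaks, rose by 0.55 ± 0.14 (89.5 and 78.9 CPM in ALP, 50.7 and 64.7 CPM in control). H2afv, an H2A.Z gene, was at 18.7 and 9.83 CPM in ALP against 44.3 and 41.6 CPM in control (-1.59 ± 0.29, adjusted p = 0.0185). H3f3a, an H3.3 gene, was at 103 and 68.5 CPM in ALP against 183 and 166 CPM in control (-1.03 ± 0.20, adjusted p = 0.0199), and H2afj fell by 0.53 on the log2 scale. The other H2A.Z gene, H2afz, and the other H3.3 gene, H3f3b, did not pass. H2afz was at 222 and 218 CPM in ALP against 188 and 202 CPM in control. H3f3b was at 614 and 623 CPM in ALP against 533 and 527 CPM in control. The difference between the genes of a pair was not tested.

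Of 18 genes for 3′ processing, export and decay of histone mRNA, 6 were higher and 0 were lower in ALP, against 18.0% higher and 12.9% lower over all tested genes. The share called in either direction was near the 30.9% of all genes, and the median log2 fold change was 0.26. At an unadjusted p under 0.05 edgeR found 2 of them lower, limma-voom called 1 lower at its adjusted p and DESeq2 called 0 lower. Slbp had 49.1 and 61.0 CPM in ALP against 27.9 and 29.2 CPM in control, a log2 fold change of 0.95 ± 0.14 (edgeR adjusted p = 0.0152). Cstf2, a cleavage factor subunit, rose by 0.78 ± 0.12, Eri1, an exonuclease that trims histone mRNA, by 0.43 ± 0.09, and Cpsf2, a subunit of the cleavage complex, by 0.36 ± 0.10. All 4 were higher in both ALP libraries than in both controls.

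Of 14 genes that act in histone gene transcription, 5 were higher and 1 was lower in ALP (median 0.17), where 18.0% of all tested genes were higher and 12.9% lower. The cyclin E genes Ccne1 and Ccne2, whose kinase phosphorylates the histone transcription coactivator Npat, rose by 1.21 ± 0.15 and 1.37 ± 0.23, and Ccna2 by 0.56 ± 0.09. E2f1, an activator of S phase genes, rose by 0.61 ± 0.12. Npat itself was at 50.8 and 57.9 CPM in ALP and 54.1 and 45.9 CPM in control (log2 fold change 0.12 ± 0.13, adjusted p = 0.492). The lower gene was Pou2f1, named because it was the only one, which fell by 0.45 (31.4 and 26.6 CPM in ALP, 39.7 and 39.8 CPM in control).

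Most genes for the proteins that carry new histones were higher in ALP. Of 21 histone chaperone and import genes, 15 were higher and 0 were lower (median 0.53), against 18.0% higher and 12.9% lower over all tested genes. Like the other lists, this list was chosen with earlier results of these data known, so the comparison is not an independent test. By an unadjusted p under 0.05, edgeR also found 0 lower, and DESeq2 and limma-voom called 0 lower. Mcm2, a helicase subunit that also binds H3 and H4, had 148 and 176 CPM in ALP against 67.5 and 72.5 CPM in control (log2 fold change 1.21 ± 0.11, edgeR adjusted p = 0.0149). Chaf1b of the CAF-1 complex rose by 1.21 ± 0.12, Asf1b by 1.15 ± 0.14, and Nasp, which carries H3 and H4, by 0.85 ± 0.10.

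The 20 S phase genes set beside them were all higher in ALP by edgeR (median 0.92), where 18.0% of all tested genes were, a direction already known from earlier results of these data. Pcna, the sliding clamp of DNA polymerase, had 210 and 233 CPM in ALP against 122 and 127 CPM in control (0.84 ± 0.09). Cdc6, a replication licensing factor, rose by 2.11 ± 0.21, Mcm3 by 1.65 ± 0.14, Uhrf1 by 1.53 ± 0.15 and Mcm4 by 1.22 ± 0.11. For the same libraries the log2 ratio was -0.38 for the summed clustered histone genes and 0.11 without Hist1h1c and Hist1h2bc. These are ratios of sums, which is another measure than the S phase median. The median log2 fold change of the 9 tested clustered histone genes was -0.05. The labels name no poly(A) selection, and its part in this difference was not tested. The calls in these lists were lost with no filter on low counts and without either control library, as were all calls in the table, while the fold changes of the named genes kept their direction.

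**Figure D4:**
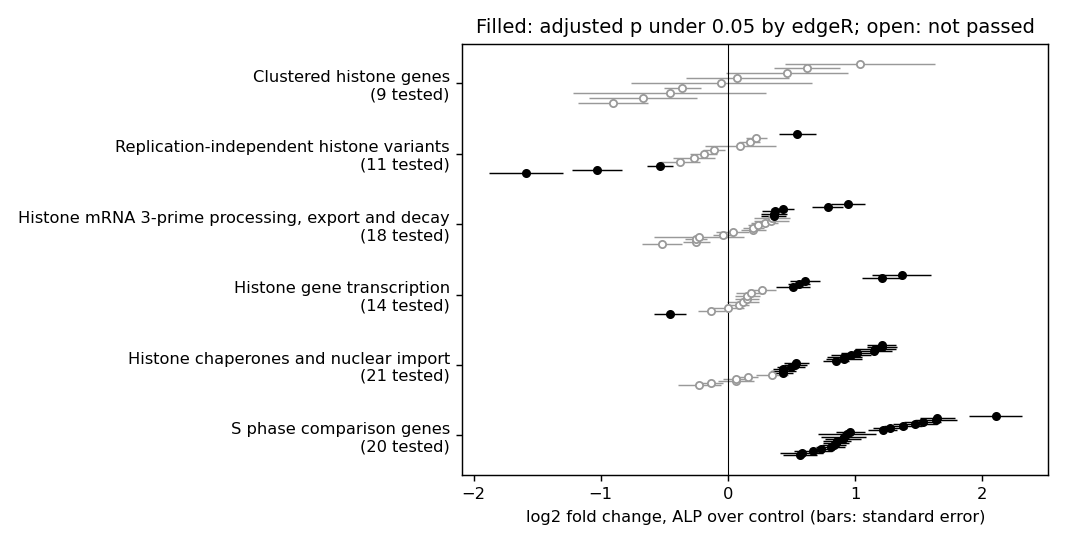
log2 fold changes, ALP over control, of the tested clustered histone genes and of 5 lists of related genes; each point is a gene with its standard error, filled where edgeR's adjusted p was under 0.05. No clustered histone gene is filled, and all 20 S phase genes are filled and to the right of 0.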

How the data were processed

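Total RNA was extracted with TRIzol, and a company made the libraries, per the labels' protocols. No kit, poly(A) selection, strand or read layout is stated there. The tools named are HISAT2 2.0.5 for alignment and featureCounts 1.5.0-p3 for counting, per the submitters' processing notes. GRCh38, a human build, is named with them, although the table lists mouse genes. The coordinates of all 67 clustered histone genes equal those of GENCODE M21 (GRCm38). The authors deposited 1 table with whole-number counts per library, not normalized, and 4 other columns of per-library values, which were not used here. Levels between genes are counts per kilobase of the deposited gene length. The deposited normalized signal columns, 1 mean per group, were not used. The authors' deposited table also holds log2 fold changes and p-values, and names no test for them.

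The 4 count columns carry the numbers 2 and 3 for ALP and 1 and 3 for control, which match the group but no sample title. The libraries are therefore called replicates A and B of their group. The test was edgeR 4.0.16 (R 4.3.3): TMM scaling, filterByExpr (minimum count 10, minimum total 15), glmQLFit and a two-sided glmQLFTest with group alone, with Benjamini-Hochberg adjustment over all 14056 genes tested and a threshold of 0.05. Alternatives used DESeq2 1.42.0 and limma 3.58.1. The script was tested on simulated data. CPM is the count divided by the TMM-scaled library size, times 1000000. Library totals were 15766244 to 17430345 counts. Poisson intervals (95%) cover counting error only, since reads are not independent molecules. A count of 0 allows up to 3 counts, which is 0.172 to 0.190 CPM by library totals.

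The stem-loop was searched after the stop codon in GENCODE transcripts by its consensus. Shared sequence was counted in 100-base stretches on both strands. Named clustered histone genes are, per class, the 2 with the highest mean CPM and the tested gene with the log2 fold change nearest to 0, with Hist4h4 and both Hist3 genes. Named genes of the other lists are up to 4 called genes with the smallest p per list, with Slbp, Npat, H2afz, H3f3b and Pcna. The genes, lists and tests were chosen with earlier results of these data known. Leaving out a library leaves 1 in its group, which is then assumed to vary like the other group.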

Additional observations from a re-analysis of the deposited data

How the results depend on the processing

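No paired analysis was possible because the columns of the ALP and control groups share fewer than 2 replicate numbers. At this depth 58 of 67 clustered histone genes had too few counts for a test. With no low-count filter, and at an adjusted p under 0.01, 0 genes of the table were called in either direction, against 2537 higher and 1813 lower. Those settings therefore left 0 calls in each list of related genes. Leaving out 1 library gave 0 (without either control) to 3872 genes higher and 0 to 3646 lower (without ALP replicate A), and the lists followed. Variants ranged over 0 to 2 higher and 0 to 5 lower, and 3′ processing genes over 0 to 10 higher and 0 to 2 lower. Transcription genes ranged over 0 to 6 higher and 0 to 1 lower. Chaperones had 0 to 16 higher and S phase genes 0 to 20. The cause was not tested. Of the 3′ processing genes, 1 was lower by library totals alone, with a filter of 1 CPM in 2 libraries, and by limma-voom.

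Of the clustered histone genes, 1 (an H2B gene, Hist1h2bc) was lower with DESeq2 and with limma-voom. Over all tested genes 12.5% and 15.1% were lower by these tests. With 1 library left out, calls among the clustered histone genes were most frequent without ALP replicate A, as over the whole table. They are therefore not read by gene or class. Summed log2 ratios over leaving out 1 library ranged from -0.57 to -0.21 for all 67 genes, -0.55 to -0.20 for H1, -0.75 to -0.22 for H2A, -1.07 to -0.36 for H2B, -0.39 to 0.39 for H3 and 0.33 to 0.61 for H4. The ratio of all genes was 0.11 without Hist1h1c and Hist1h2bc, an alternative chosen after seeing the data, as were the older dispersion estimate of edgeR, which moved none of these counts by over 1.5 times, the sum per kilobase and leaving out the most abundant gene of a class, which gave -0.54 for H1, -0.18 for H2A, 0.16 for H2B, -0.53 for H3 and 0.27 for H4. With only tested genes summed, H3 was at 1.07, and with counts per kilobase summed, in place of the planned sum of deposited per-length values, which was not run, at -0.01. The sign turned for 2 genes, neither of which passed under any alternative that gave an adjusted p: Hist2h2be ranged from -0.33 (without control replicate A) to 0.62, and Hist1h4k was at 0.22 with limma-voom, 0.17 without ALP replicate B, and ranged from -0.71 (without control replicate B) to 1.23 (without control replicate A). Among the other single-gene values under alternatives, 265 kept direction and call, 7 gained and 63 lost a call.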
